A study of Mus musculus with 10 samples.

Results

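H3K27ac, the acetylation of lysine 27 on histone H3, was compared between Casz1 conditional knockout (cKO) and control mouse retina. The members of the comparison were the H3K27ac libraries of the series, 2 of 10 samples, 1 per genotype, and peaks on chromosomes 1 to 19 were used. The control list held 70458 of these peaks and the cKO list 76177. The series title places the study in retinal development under a Casz1 chromatin remodelling complex. Its other samples were ATAC-seq (4), H3K27me3 (2) and input chromatin (2), and the inputs were not analysed here.

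Both H3K27ac libraries came from microdissected retina of C57BL/6 mice at postnatal day 0. The control was labelled wild type, and its peak names read Cre negative. The other library was labelled Casz1 cKO, its peak names read Cre positive, and its tissue was taken from peripheral retina picked by fluorescence. The sources used here do not give the position of the control tissue, the driver of Cre, the deleted part of Casz1 or the number of animals per library. Genotype and retinal position cannot be told apart. ATAC libraries, used only to describe the peaks, came from C57BL/6 retinal explants of postnatal day 2 that carried a plasmid for GFP, or for GFP with Cre, during 2 days in culture. With 1 H3K27ac library per genotype no test was possible, and every difference below is a description of these 2 libraries. The lists held peak positions and no read counts, so the depth of each library is unknown. In dissected tissue, fewer cells of a type and less of the mark per cell cannot be told apart.

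H3K27ac is placed by the acetyltransferases p300 and CBP and removed by histone deacetylases, among them those of the NuRD complex. It lies at active promoters, where it is centred just downstream of the transcription start, and at active enhancers, many of them inside or between genes. H3K27me3, set on the same residue by Polycomb repressive complexes, marks silent developmental genes. Casz1 is a zinc finger transcription factor that works in retinal progenitors and photoreceptors, and it is known to act with Polycomb and with NuRD.

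The windows of 4 annotated starts that lay under a peak of 1 library alone are shown because they are the places where presence and absence of the mark can be read on the sequence. Each line is a RefSeq GRCm38.p6 window from 250 bases before to 50 bases after an annotated start, read 5′ to 3′ along the gene. Capitals mark matches, on either strand, to 6 short motifs. The TATA box was searched as TATAAA and the CCAAT box by those letters. The GC box was searched as GGGCGG and the core of OTX and CRX sites as TAATCC. One E box was searched as CAGCTG and the other E box was searched as CAGATG. Ankrd2 (chr19:42035777-42036076, plus strand), a muscle ankyrin repeat protein, and Gnat2 (chr3:108092816-108093115, plus strand), the transducin alpha subunit of cones, were covered in control only. Frzb (chr2:80447347-80447646, minus strand), a secreted antagonist of Wnt, and Crybb1 (chr5:112255570-112255869, plus strand), a lens crystallin, were covered in cKO only.
Ankrd2: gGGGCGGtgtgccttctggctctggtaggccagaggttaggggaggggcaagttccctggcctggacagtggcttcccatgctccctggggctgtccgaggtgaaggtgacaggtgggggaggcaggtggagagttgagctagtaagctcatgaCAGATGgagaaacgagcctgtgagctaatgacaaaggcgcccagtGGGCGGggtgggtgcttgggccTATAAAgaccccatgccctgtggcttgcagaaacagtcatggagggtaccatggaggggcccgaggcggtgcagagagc
Gnat2: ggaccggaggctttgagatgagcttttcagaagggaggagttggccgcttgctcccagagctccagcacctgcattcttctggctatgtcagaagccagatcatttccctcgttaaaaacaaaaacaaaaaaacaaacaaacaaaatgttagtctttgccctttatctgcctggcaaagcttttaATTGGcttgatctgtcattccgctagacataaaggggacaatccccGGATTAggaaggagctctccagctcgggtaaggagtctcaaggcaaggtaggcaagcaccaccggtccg
Frzb: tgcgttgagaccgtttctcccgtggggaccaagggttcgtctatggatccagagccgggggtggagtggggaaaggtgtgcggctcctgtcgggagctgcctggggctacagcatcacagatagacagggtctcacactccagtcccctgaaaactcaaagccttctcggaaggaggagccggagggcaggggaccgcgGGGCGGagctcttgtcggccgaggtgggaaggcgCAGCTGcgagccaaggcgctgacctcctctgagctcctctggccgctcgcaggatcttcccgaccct
Crybb1: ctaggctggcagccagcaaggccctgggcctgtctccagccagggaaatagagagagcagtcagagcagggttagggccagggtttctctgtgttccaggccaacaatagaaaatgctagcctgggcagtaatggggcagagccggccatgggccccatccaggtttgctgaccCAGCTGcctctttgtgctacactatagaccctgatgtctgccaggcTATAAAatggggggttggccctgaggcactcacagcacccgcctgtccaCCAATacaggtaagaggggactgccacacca
All 300 bases of the Ankrd2 and Frzb windows lay under the peak of 1 library. In the Gnat2 window 236 bases were covered in control and 0 in cKO, and in the Crybb1 window 0 and 197. Gnat2 and Crybb1 were chosen after their values were seen, as the members of the gene lists below with the most bases of this kind in each direction. Both of these windows belong to starts inside the gene record, outside the end windows used below. The ends of Gnat2 held 998 bp in control and 1176 bp in cKO, and those of Crybb1 held 515 and 348 bp. Among all 20063 windows, the share with a match was 12.7% for the TATA box, 38.1% for the CCAAT box, 47.0% for the GC box, 6.42% for the OTX and CRX core, 15.6% for CAGCTG and 14.6% for CAGATG. The CCAAT box overlapped the OTX and CRX core at no place in these 4 windows. A match describes letters and is no evidence of binding.

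The tissue label was checked on markers. In both libraries a peak lay inside the end windows, 1 kb to either side, of all 18 autosomal genes of a retinal progenitor list, and the end windows of Sox2, Rax and Six3, which specify and maintain retinal progenitors, were covered whole, at 4002 of 4002 bp, in both. None of 18 Hox genes, which are silent in the anterior nervous system, had such a peak in either library.

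The cKO list was longer but its peaks were narrower and covered less of the genome. Control peaks covered 54.4 Mb with a median width of 397 bp, and cKO peaks covered 50.7 Mb with a median of 322 bp. Peaks of at least 1000 bp, called wide here, numbered 17730 (25.2%) in control and 16171 (21.2%) in cKO, and they held 65.0% and 61.1% of the covered bases. The narrowest peak was 128 bp in control, shared by 314 peaks, and 111 bp in cKO, shared by 351. The lower limit of the lists thus differed, and 6053 cKO peaks were narrower than any control peak. Without those 6053 peaks, an alternative added after the data were seen, the unmatched peaks described below became 1242 in control and 1066 in cKO at gene ends. They became 14553 and 12325 in bodies and 7280 and 5780 in intergenic space, so that cKO had fewer of them in each place and not more.

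Each peak was put in 1 of 3 places. A peak at a gene end overlapped the window of 1 kb to either side of either end of a protein-coding gene, a peak in a gene body overlapped a gene and no such window, and the rest were intergenic. Exons, introns and untranslated regions were not assigned. Narrow peaks, under 1000 bp, were more numerous in cKO in each place. At gene ends there were 5868 in control and 7078 in cKO, a ratio of 1.21. In gene bodies there were 29751 and 33973, a ratio of 1.14, and in intergenic space 17109 and 18955, a ratio of 1.11. Without the cKO peaks narrower than any control peak, the ratio was 1.15 at gene ends, 1.01 in bodies and 1.00 in intergenic space. Lists cut to equal length gave 1.15, 1.02 and 1.01. With peaks under 300 bp left out, the ratio turned to 0.960 in bodies and 0.933 in intergenic space, and at gene ends it stayed above 1 under every alternative tried, at 1.10 or more.

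Wide peaks were fewer in cKO in each place. Gene ends had 8403 in control and 7927 in cKO (ratio 0.943), gene bodies 5798 and 5165 (0.891), and intergenic space 3529 and 3079 (0.872). The ratio was thus nearest to 1 at gene ends.

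**Figure D1:**
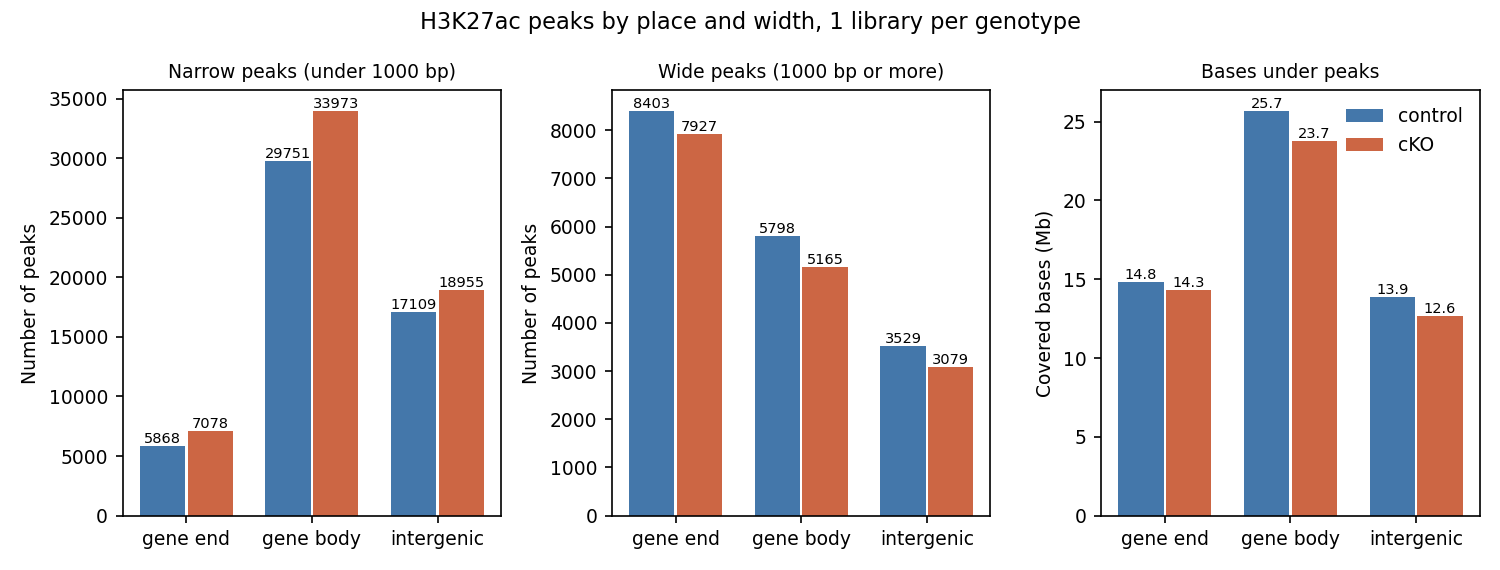
H3K27ac peaks of control and Casz1 cKO retina, 1 library each: bars give the number of narrow peaks (left), the number of wide peaks (middle) and the covered bases in Mb (right) at gene ends, in gene bodies and in intergenic space. Narrow peaks are more numerous and wide peaks fewer in cKO in all 3 places, and covered bases are lower, from 25.7 to 23.7 Mb in gene bodies.

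A peak was called unmatched when it shared no base with a peak of the other list. The share was 31.3% in control (22062 peaks, exact Clopper-Pearson 95% interval 31.0 to 31.7%) and 31.1% in cKO (23723 peaks, 30.8 to 31.5%). These intervals cover counting error only. At gene ends 8.25% of control peaks (1177) and 8.71% of cKO peaks (1307) were unmatched. In gene bodies the shares were 39.3% (13953) and 39.1% (15308), and in intergenic space 33.6% (6932) and 32.3% (7108). Peaks at gene ends were therefore shared far more often than the others, in both lists alike.

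Width went with matching. Matched peaks had a median width of 679 bp in control and 548 bp in cKO, and unmatched peaks 192 and 165 bp. Among peaks under 200 bp, 62.8% of those at gene ends, 73.7% of those in bodies and 70.2% of intergenic ones were unmatched in control. The cKO shares of that width were lower, at 57.7%, 69.2% and 63.8%. From 500 bp to under 1000 bp the control shares were 1.68%, 7.68% and 5.99%, and the cKO shares 0.543%, 4.68% and 2.72%. In every width class under 1000 bp the share was lowest at gene ends in both lists. Of the unmatched peaks, 37.1% in control and 35.4% in cKO lay within 500 bp of a peak of the other list.

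**Figure D2:**
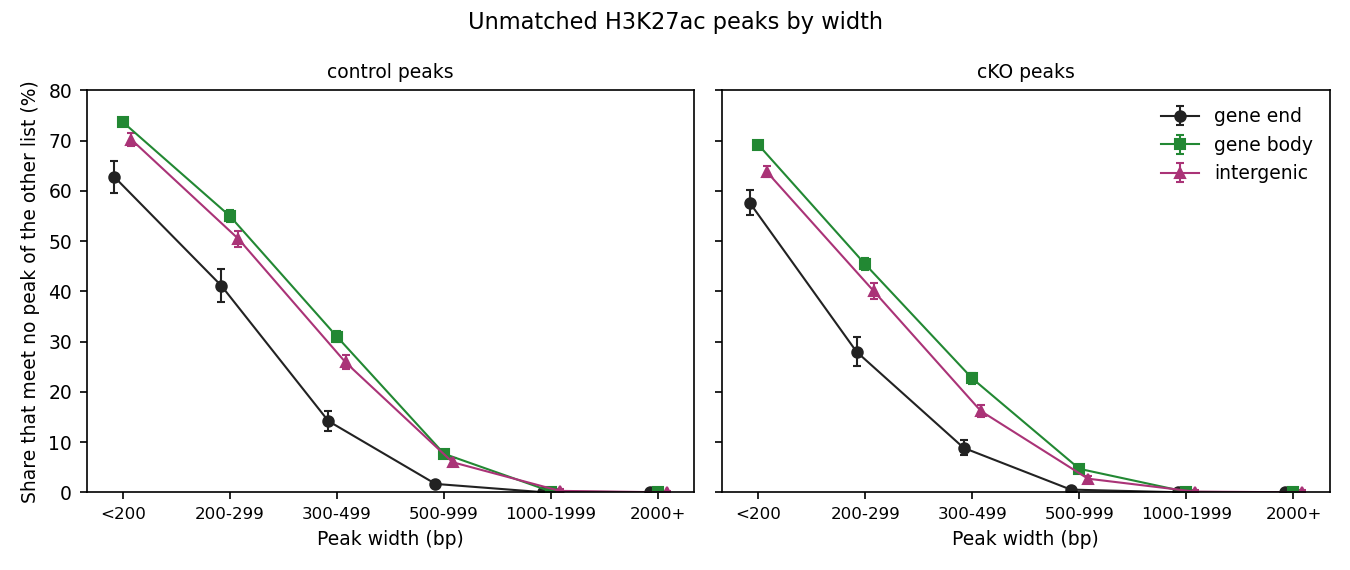
Share of H3K27ac peaks that meet no peak of the other list (vertical axis, %) against peak width in bp, for control peaks (left) and cKO peaks (right), with lines for gene ends, gene bodies and intergenic space and bars for exact 95% intervals. The share is highest under 200 bp, at 73.7% for control peaks in gene bodies, and is 0 for all 3 places from 2000 bp.

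Wide peaks were almost all shared. Only 15 of 17730 wide control peaks were unmatched, 2 at gene ends, 6 in bodies and 7 intergenic, and only 7 of 16171 wide cKO peaks, 1 at a gene end, 3 in bodies and 3 intergenic. No peak of 2000 bp or more was unmatched in either list. An upper exact limit for this share was 0.138% at control gene ends and 0.403% for intergenic cKO peaks.

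The wide peaks differed in how they broke up. A wide control peak met several separate cKO peaks in 4249 cases (24.0%), and a wide cKO peak met several control peaks in 1615 (9.99%). By place the control shares were 14.0% at gene ends, 33.6% in bodies and 32.0% in intergenic space. The matching cKO shares were 4.76%, 15.5% and 14.2%. Breaks were thus rarer at gene ends in both directions. No wide cKO peak lay under 3004 wide control peaks (16.9%), which was 9.40% at gene ends, 23.3% in bodies and 24.5% in intergenic space. In the other direction 1249 wide cKO peaks (7.72%) had no wide control counterpart.

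Peaks that met exactly 1 peak of the other list, which in turn met only them, made 37690 pairs. The cKO peak of a pair was narrower in 60.8% of them, with a median difference of -41 bp and quartiles of -157 and 61 bp. The medians were alike by place, at -41 bp at gene ends, -40 bp in bodies and -41 bp in intergenic space. Both edges lay inward in cKO, by a median of 19 bp on the left and 17 bp on the right.

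Covered bases were lower in cKO in each of the 3 places, least at gene ends. Bases within 1 kb of a gene end under H3K27ac came to 14.8 Mb in control and 14.3 Mb in cKO, a difference of -3.65%. In gene bodies they were 25.7 and 23.7 Mb (-7.58%), and in intergenic space 13.9 and 12.6 Mb (-8.97%). The cKO value was lower on 19 of 19 chromosomes in each place. Across chromosomes the difference ran from -4.71% (chromosome 14) to -1.80% (chromosome 16) at gene ends. It ran from -11.0% (chromosome 19) to -5.77% (chromosome 13) in bodies and from -11.6% (chromosome 11) to -6.76% (chromosome 9) in intergenic space. On 19 of 19 chromosomes gene ends differed less than bodies, and likewise less than intergenic space. In windows of 1 Mb the cKO value was lower in 842 of 947 (88.9%), with a median of -6.84%, a lowest value of -25.5% and a highest of 16.6%. Chromosomes of 1 library are not replicates, and this spread is within the library pair. These values divide a peak that crosses a window border between places. By whole peaks, each in the place it was put in, the places differed less from each other. The ratio of cKO to control bases was then 0.941 at gene ends, 0.932 in bodies and 0.916 in intergenic space. That count was not among the alternatives below.

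Of the whole difference of -3.73 Mb, 14.5% lay at gene ends, 52.1% in bodies and 33.4% in intergenic space. Over the alternatives, the ratio of cKO to control stayed between 0.955 and 0.972 at gene ends, 0.886 and 0.943 in bodies, and 0.871 and 0.928 in intergenic space. In the H3K27me3 lists, from the same kind of tissue, the cKO difference was -0.916% at gene ends, -1.91% in bodies and -2.19% in intergenic space. The H3K27me3 values were smaller in size and in the same order, and the difference between the marks could not be tested.

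**Figure D3:**
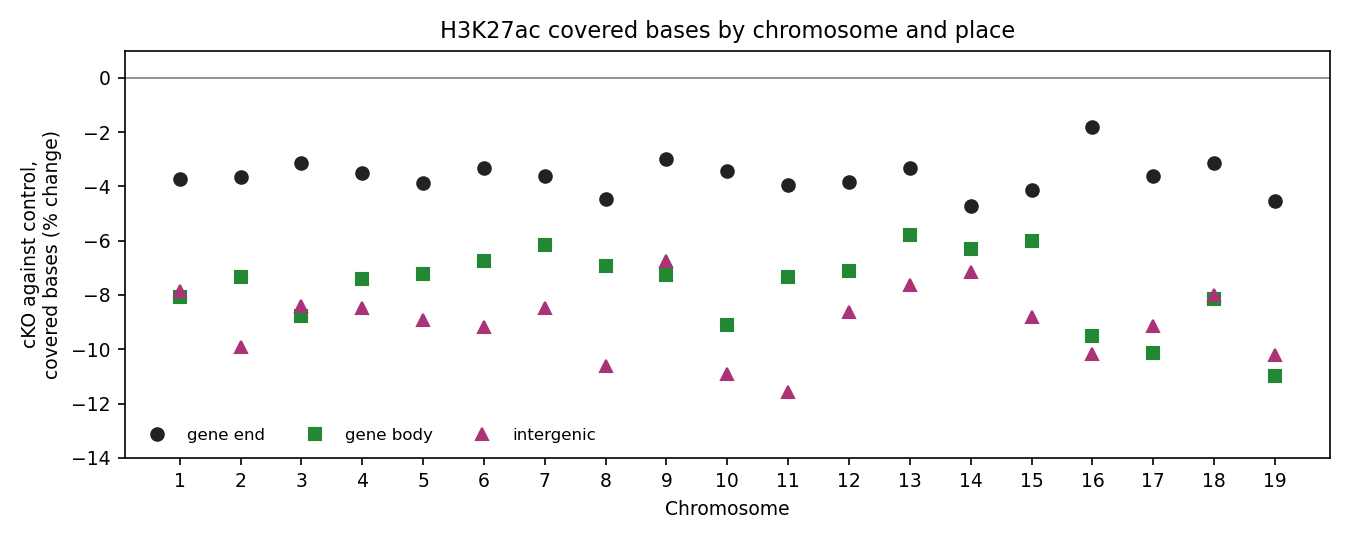
Difference of cKO against control in bases covered by H3K27ac (vertical axis, %) on each autosome (horizontal axis) at gene ends, in gene bodies and in intergenic space. All points lie under 0, and on each chromosome the gene end point is the nearest to 0, with -1.80% on chromosome 16 the smallest difference.

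Bases covered in 1 library alone were divided by where they came from. Control alone covered 12.8 Mb, of which 5.04 Mb were whole unmatched peaks, 6.30 Mb outer edges of shared regions and 1.48 Mb gaps inside shared regions that cKO left open. Alone, cKO covered 9.10 Mb, of which 4.62 Mb were whole peaks, 3.87 Mb edges and 0.613 Mb gaps. The net difference was therefore -0.426 Mb from whole peaks, -2.44 Mb from edges and -0.871 Mb from gaps. By place, a whole region was counted here at gene ends if it touched an end window, including its bases outside the window. At gene ends so counted the net from whole peaks was -0.0216 Mb, against -0.636 Mb from edges. All origins together gave -0.859 Mb there, while the bases inside the end windows gave -0.541 Mb. Most of the difference thus lay at the borders and inside shared regions.

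Around annotated 5' ends, taken for 16457 genes whose strand the promoter table gives, H3K27ac was highest just downstream in both libraries. In the first 500 bp downstream 53.1% of bases were covered in control and 52.3% in cKO, a relative difference of -1.54%. In the 500 bp upstream the values were 40.04% and 38.3% (-4.29%). From 2 to 5 kb away the relative difference was -7.80% downstream and -7.38% upstream. In the 100 bp bins, the difference in percentage points was widest just before the 5' end, at -2.33 in the last bin upstream (45.8% and 43.5%). Around 3' ends there was no maximum, with 4.08% and 3.95% in the first 500 bp beyond the end. A start window of 1 kb to either side had a peak in control only for 204 of these genes (1.24%) and in cKO only for 179 (1.09%).

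**Figure D4:**
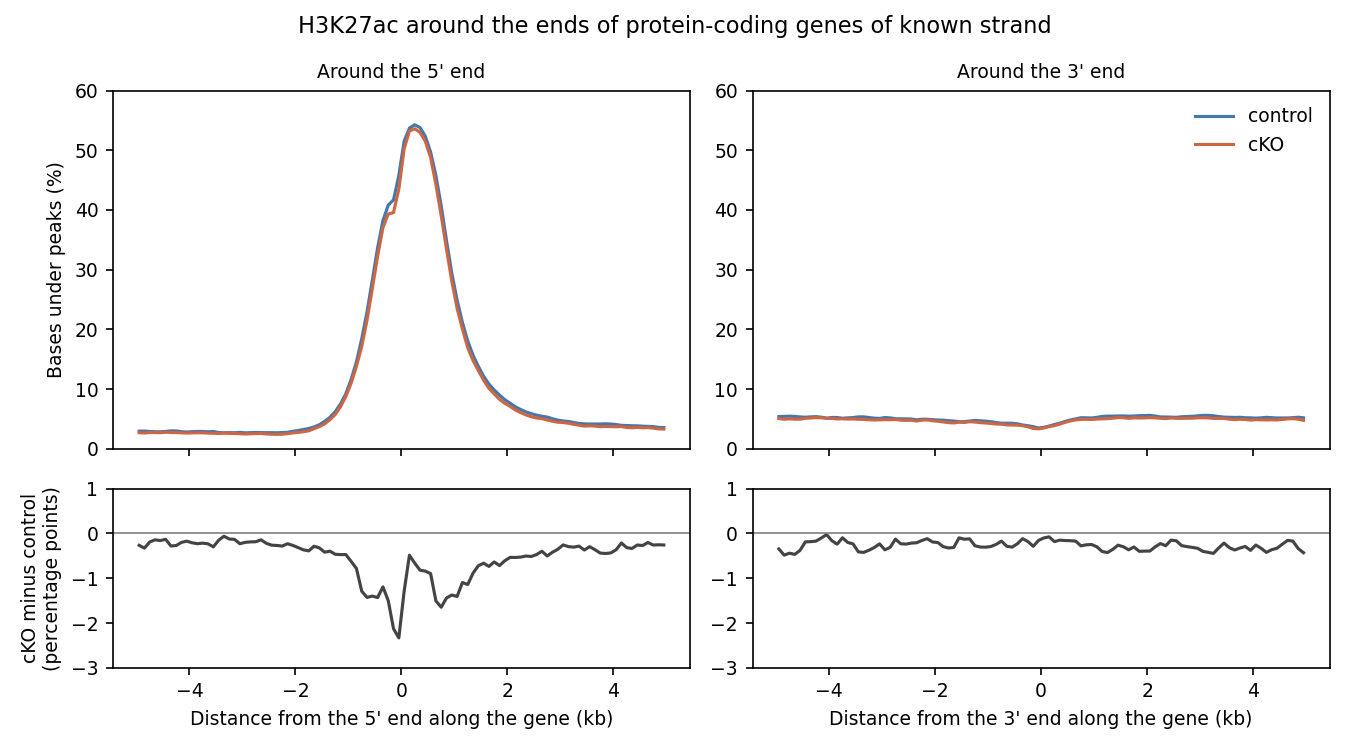
Share of bases under H3K27ac peaks (%, upper panels) and its difference, cKO minus control, in percentage points (lower panels), in 100 bp bins within 5 kb of the 5' end (left) and the 3' end (right) of protein-coding genes of known strand. The curves nearly coincide downstream of the 5' end, at 53.1% and 52.3% over the first 500 bp, and the widest difference is -2.33 points just before it.

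Gene by gene, marking near an end was mostly a shared state. Of 20665 protein-coding genes, 12556 had an end peak in both libraries, 297 in control only (1.44%) and 292 in cKO only (1.41%). Among 13145 genes with H3K27ac at an end in either library, 7871 (59.9%) had fewer covered bases there in cKO, 4783 (36.4%) had more, and the median difference was -32 bp. Among 10551 genes with H3K27ac in the body, 6248 (59.2%) had fewer and 4192 (39.7%) more, with a median of -52 bp. Scaling cKO by 1.07, which makes the covered bases of both libraries equal and is a shift of 0.10 on the log2 scale, turned the balance at ends to 4569 with fewer and 8576 with more. The factor comes from all covered bases, which differed by -6.86%, while those at gene ends differed by -3.65%. Scaling also counts as more the 491 genes with equal end bases, among them Sox2, Rax and Six3, whose windows were covered whole. In bodies the scaled balance became 5085 and 5466. Directions below are unscaled unless stated.

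A ratio of at least 1.5, taken with 100 bp added to both libraries and at least 500 bp in the higher, was reached at ends by 105 genes higher in cKO (0.901% of 11659) and 307 lower (2.63%). In bodies it was reached by 421 genes higher (6.02% of 6996) and 661 lower (9.45%). After scaling, the counts were 178 higher and 226 lower at ends and 566 higher and 521 lower in bodies, so the balance in bodies turned. Large differences were more common in bodies than at ends in both directions, with and without scaling.

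The widest control-only peak at a gene end was 1084 bp inside Grifin, a galectin-related gene of the lens (chr5:140565513-140566596), and the nearest cKO peak lay 1205 bp away. Next came peaks of 1050 bp by the 3' end of Ahdc1, an AT-hook protein gene, and 844 bp by the 3' end of Asprv1, a skin protease gene. The Ankrd2 promoter shown above lay under a control peak of 830 bp (chr19:42035542-42036371), from 485 bp before to 344 bp after the start in the promoter table. That place met ATAC peaks in all 4 ATAC libraries and no H3K27me3 peak. The last of the 6 widest lay at Zcchc24 (794 bp) and near an end of 4930447A16Rik inside Ncald (748 bp).

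Frzb had the widest cKO-only end peak, 1057 bp (chr2:80446870-80447926), from 530 bp before to 526 bp after its start. It was also the most isolated of the widest peaks, with the nearest control peak 130539 bp away. Within 6 kb of the start cKO H3K27ac covered 1197 bp in 2 peaks and control 0 bp. H3K27me3 covered 5666 bp there in control and 5517 bp in cKO, and all 4 ATAC libraries had a peak at the place. The H3K27ac of cKO thus lay in a stretch called for H3K27me3 in both genotypes and called open in each ATAC library.

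The next widest cKO-only end peaks, all narrow by the limit used here, were closer to control peaks. They lay at Mrps12, a mitochondrial ribosomal protein gene (761 bp), Lgals3bp (665 bp, 11 bp from a control peak), the hyaluronidase gene Hyal1 (660 bp, 45 bp away), Mxra7 (645 bp) and the mitochondrial carrier gene Slc25a18 (639 bp). None of these 5 met H3K27me3 in either library.

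In gene bodies the widest control-only peaks included those in Wasf3, an actin regulator (1128 bp), Lrfn2, a synaptic adhesion gene (1079 bp), Rad51b, a recombination gene (1046 bp), Acot7 (1025 bp) and the ion channel gene Asic4 (1000 bp). The Wasf3 peak was only 142 bp from a cKO peak, while the Lrfn2 peak was 6814 bp away. The widest cKO-only body peak was 1204 bp, in the overlap of Ttc14 and Ccdc39, a cilium gene, and 11478 bp from any control peak. It was followed by Cdc42se2 (1014 bp), Card14 (1007 bp), Ttc28 (976 bp), Dscam, an adhesion gene that spaces retinal neurons (950 bp), and Pip5k1b, a lipid kinase gene (942 bp).

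Between genes, the widest control-only peak was 1159 bp (chr14:103792595-103793753), 20.9 kb from the 3' end of the endothelin receptor gene Ednrb and 12921 bp from a cKO peak. Others lay 42.9 kb from Irx5, an Iroquois gene of bipolar cells (1116 bp), and 240.4 kb from Dleu7 (1089 bp). The next were 419 kb from Kif2b (1025 bp), 956 kb from Celf4 (1021 bp) and 126 kb from Bcl2l11, the apoptosis gene of Bim (1021 bp). The cKO-only ones lay 44.5 kb from Sspn (1034 bp), 3.41 kb from the growth factor gene Igf2 (1003 bp) and 137 kb from Sox4, a neuronal differentiation gene (1001 bp). Further ones were 15.5 kb from Kpna3 (898 bp), 24.6 kb from the crystallin gene Cryba4 (798 bp) and 41.5 kb from Lrpap1 (788 bp). The Sox4 peak had a control peak 246 bp away, and those of the Sspn and Igf2 peaks were 10559 and 11739 bp away. A nearest gene is a position and no assignment of an enhancer.

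The most broken control peak was 6678 bp in Wasf3 (chr5:146409339-146416016), which met 8 cKO peaks. Within 6 kb of its centre control had 5 peaks over 11052 bp and cKO 12 peaks over 7530 bp. Control peaks of 3606 bp in the clock gene Per2 and of 10753 bp at the kinase gene Nuak2 each met 6 cKO peaks. The reverse was seen at Tmem267, where a cKO peak of 3398 bp met 6 control peaks and cKO covered 5941 bp against 3250 bp within 6 kb. A cKO peak of 5753 bp at Asic4 and 1 of 4850 bp at Acsl3, a fatty acid activation gene, each met 4 control peaks.

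Long one-library edges were found in bodies in control, 1211 bp in Smad6, an inhibitor of BMP signalling, 1201 bp in Per2 and 1118 bp in Eml1, a microtubule gene. In cKO such edges lay in intergenic space nearest Plekhb2 (1171 bp) and at Ccdc188 and Zdhhc8 (1025 bp).

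**Figure D5:**
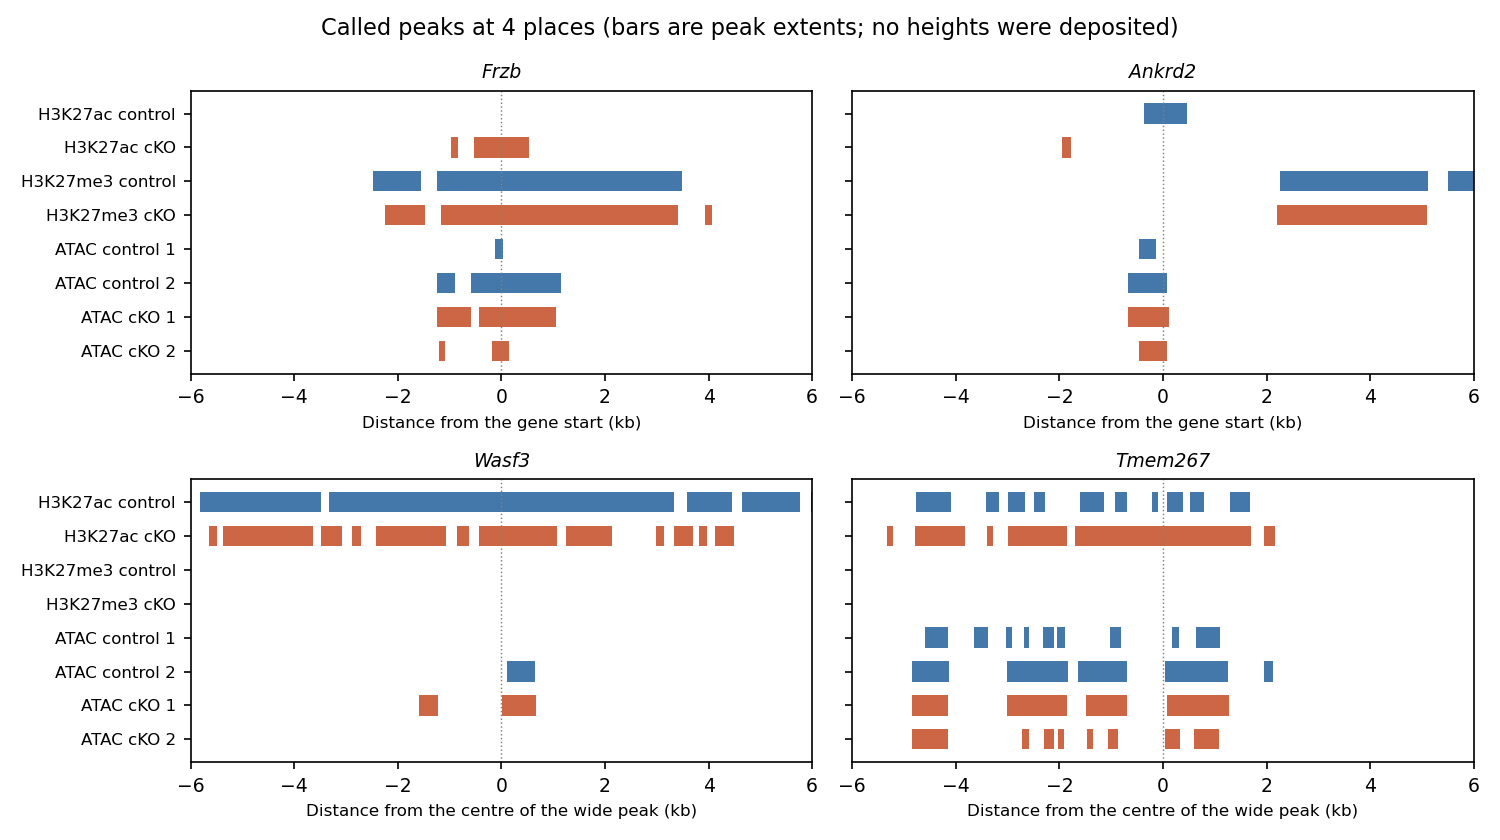
Called peaks of every library within 6 kb of the RefSeq gene start of Frzb and Ankrd2 (top) and of the centre of the most broken wide peak at Wasf3 and Tmem267 (bottom), with blue bars for control, red bars for cKO and the horizontal axis in kb. Bars show peak extent and not height: Frzb has H3K27ac bars in cKO and none in control, and the 6678 bp control bar at Wasf3 stands over several cKO bars.

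By whole gene bodies, the largest shortfall in cKO was in Msi2, an RNA-binding protein of progenitors, with 141817 bp in control and 120916 bp in cKO. The adhesion gene Tenm4 had 48791 and 37878 bp, Rad51b 63845 and 52958 bp, Frmd4a 77300 and 66576 bp, and the Rac activator gene Tiam1 54112 and 44055 bp. The largest excess was in Jarid2, a partner of Polycomb repressive complex, with 8483 bp in control and 12613 bp in cKO. The GTPase regulator gene Arhgap32 had 6270 and 10198 bp, the neuronal microtubule gene Map2 13423 and 16762 bp, the chaperone gene Hspa12a 12023 and 15036 bp, and Tmem267 3348 and 6130 bp. The shortfalls were larger in bases than the excesses, and they were in bodies with more H3K27ac.

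Named gene lists were then read beside all genes. Of all genes marked at ends, 59.9% had fewer bases there in cKO without scaling and 34.8% with scaling, which counts equal coverage as more. Of 493 autosomal list members, 10 (2.03%) had an end peak in control only and 9 (1.83%) in cKO only, beside 1.44% and 1.41% of all protein-coding genes. The control-only members included Reep6, Lhx4, Cacna1s, Egfl7, Csf1r, C1qb, Gja1, Cpxm2 and Slc17a7, and their control coverage ran from 134 bp (Reep6) to 345 bp (Egfl7). The cKO-only members were Ikzf1, Pde6c, Prdm1, Tbr1, Onecut3, Flt1, S100b, Afp and Gata2, from 5 bp (Tbr1) to 324 bp (Gata2). All 19 were thus short stretches.

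Casz1 itself was marked in both libraries. Its end windows held 2408 bp in control and 1998 bp in cKO, and its body 97383 and 90040 bp of 148526 bp. In a list of 16 genes of temporal identity, which set the order in which progenitors make cell types, Casz1 had the largest shortfall in bases in both places, from the largest body coverage of the list. The ends of Ikzf4 held 954 and 693 bp and those of Pou2f2 628 and 400 bp, which were larger shortfalls for their coverage. Ikzf1 (Ikaros), which gives progenitors early competence, had 0 bp at its ends in control and 311 bp in cKO. At ends 9 of the 16 had fewer bases and 6 more, and the summed bases were 23698 and 22974 bp (-3.06%). With scaling, 5 had fewer and 11 more.

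Genes of progenitors were marked at ends in both libraries. In the retinal progenitor list 7 of 18 had fewer bases, 5 more and 6 the same, with a median difference of 0 bp. Fgf15, a secreted signal of progenitors, had 3565 and 2708 bp, and Hes1, a Notch effector, 3527 and 3714 bp. The 10 eye field genes included 9 marked at ends, 3 with fewer bases and 1 with more. There Pax6 had 3151 and 2830 bp and Tbx3 1900 and 2001 bp. In the body of Lhx2, which both lists hold, 12991 and 11276 bp were covered. Of 17 neurogenic genes 10 had fewer and 5 more, with 2194 and 1554 bp at Gadd45a and 3595 and 3878 bp at Insm1. In the Notch list 12 of 21 had fewer and 8 more. Lfng, a glycosyltransferase that tunes Notch, had 2710 and 1462 bp and Dtx4 2136 and 2562 bp. The summed end bases differed by -5.23% in the progenitor, -3.06% in the eye field, -5.34% in the neurogenic and -4.68% in the Notch list, beside -3.65% at all gene ends.

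Photoreceptor genes were mixed. In the rod list 6 of 11 marked genes had fewer bases at ends and 4 more. Nrl, the rod fate factor, had 2811 and 3009 bp at its ends. In the cone list 5 of 9 had fewer and 4 more, with 1402 and 514 bp at Gngt2, a transducin gamma subunit, and 0 and 210 bp at Pde6c, the cone phosphodiesterase. In the list of photoreceptor regulators 3 of 10 had fewer and 6 more. The end windows of Neurod1 held 3816 and 3476 bp, those of Onecut1 1043 and 1403 bp and those of Prdm1 0 and 34 bp. Bodies of the regulators went the other way, with fewer bases in 8 of 11, among them Rorb with 25417 and 22085 bp. Rod bodies had fewer in 10 and more in 4 of 14, and cone bodies fewer in 6 and more in 5 of 11. The summed end bases differed by -9.58% in the rod, -10.9% in the cone and -0.477% in the regulator list, beside -3.65% at all gene ends.

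Among inner neurons, amacrine genes had fewer bases at ends in 15 of 17 and more in 1, with a median of -119 bp beside -32 bp for all genes. Their summed end bases were 27547 bp in control and 24512 bp in cKO (-11.0%). With scaling, 11 had fewer and 6 more. The fate factor gene Bhlhe22 had 3210 and 2521 bp, and Tfap2b 1198 and 1615 bp. Horizontal cell genes had fewer bases in 4 and more in 6 of 10. There Ptf1a, which directs both fates, had 1279 and 843 bp, and Onecut3 0 and 159 bp. Ganglion cell genes had fewer in 9 and more in 5 of 14, with 865 and 482 bp at Pou4f1 and 843 and 1007 bp at Eomes. Bipolar genes had fewer in 7 and more in 3 of 11. Their largest shortfall was at Bhlhe22, which this list also holds, and their largest excess was at Irx5, with 3533 and 3661 bp. Müller glia genes had fewer in 13 and more in 5 of 22, with 4002 and 3168 bp at Sox8 and 1853 and 2214 bp at Rlbp1, the retinaldehyde-binding protein. The 5' end window of Rlbp1 alone held 1853 and 1807 bp. The summed end bases differed by 5.70% in the horizontal cell, -9.05% in the ganglion cell, -9.45% in the bipolar and -4.92% in the Müller glia list.

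Genes for the complexes that act on H3K27 were marked at ends in nearly every case. All 14 NuRD genes had an end peak in both libraries, and 11 had fewer bases in cKO and 2 more, with a summed difference of -4.46%. With scaling, 4 had fewer and 10 more. Chd5, a neuronal remodeller, had 1548 and 1088 bp and Mta3 1623 and 1850 bp. In the Polycomb list 16 of 24 had fewer and 4 more, with 4 and 20 after scaling. Phf1 had 1550 and 1675 bp. The list of writers, readers and erasers of H3K27ac had fewer in 9 and more in 4 of 15, with 2 and 13 after scaling. Hdac2, a deacetylase gene, had 1487 and 1364 bp.

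Broader lists were read in the same way. Cell cycle genes had fewer end bases in 16 of 26, with 1260 and 849 bp at Ccnd3 and 1079 and 1322 bp at Cdkn2a. Housekeeping genes had fewer in 11 of 17, with 2664 and 2171 bp at Gapdh and 1440 and 1844 bp at Actb. Synapse and axon genes had fewer in 13 of 21, with 1711 and 1284 bp at Ncam1 and 734 and 857 bp at Grin1. The 4 nuclear factor I genes, which late progenitors express, had fewer in 3 and equal bases in 1, and the body of Nfia held 26391 and 23147 bp. The summed end bases differed by -2.80% in the cell cycle, -2.30% in the housekeeping, -8.33% in the synapse and axon and -8.32% in the nuclear factor I list.

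Lists of retinal position bear on the peripheral origin of the cKO tissue. Genes of the peripheral margin, the future ciliary body and iris, had fewer end bases in 12 of 15 and more in 3, with sums of 20174 and 18136 bp (-10.1%). With scaling, 6 had fewer and 9 more. Bmp7 had 1074 and 658 bp, Lef1 961 and 1047 bp, and Gja1 319 and 0 bp. Of the 23 autosomal genes, 8, among them the margin genes Wnt2b and Msx1, had no end peak in either library. In dorsal retina genes the summed body bases were 36337 and 28054 bp (-22.8%). The largest part was in Aldh1a1, a retinoic acid enzyme of dorsal retina that the margin list also holds, with 6664 and 3373 bp in its body and no end peak in either library. Id2 had 3256 and 2000 bp at its ends. Of the 6 dorsal genes marked at ends, 3 had fewer bases and 2 more.

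Ventral genes had fewer end bases in 5 and more in 1 of 10, with 1847 and 1662 bp at Aldh1a3. Genes of the nasal and temporal sides had fewer in 9 and more in 2 of 13. There the sums were 21782 and 18852 bp (-13.5%), with 3296 and 2523 bp at Efna2 and 1438 and 1581 bp at Epha5. The body of Efna5, an axon guidance ligand in both lists, held 9569 and 7180 bp. The position of the tissue and the genotype cannot be told apart in any of these values.

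Markers of other cell types were marked at ends in part, and the share differed by list. Of 22 blood vessel genes 15 had no end peak in either library, among them Pecam1, Cdh5 and Tie1. The summed end bases of the list were 6447 bp in control and 4972 bp in cKO (-22.9%), fewer in 6 of 7, and still fewer in 6 with scaling. Kdr, the VEGF receptor of endothelial cells, had 1870 and 1484 bp, and Flt1 0 and 125 bp. Of 18 microglia genes 12, among them Aif1, Cx3cr1 and P2ry12, had no end peak, and the sums were 2604 and 2159 bp, with 255 and 0 bp at C1qb and 357 and 507 bp at Cd68. Of 10 astrocyte genes 7 had an end peak in either library, 5 of them in both, with sums of 5707 and 5267 bp. Pax2 and Pdgfra had none. Bodies held H3K27ac in either library in 14 of 22 blood vessel, 8 of 10 astrocyte, 11 of 14 pigment epithelium and 2 of 18 microglia genes. The blood vessel bodies summed to 40228 and 35365 bp.

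Pigment epithelium genes summed to 6380 and 6464 bp over 5 of 14, with Rpe65 and Tyr at 0 in both, and most of the sum came from Otx2 (2300 and 2039 bp) and Rlbp1, which the retina also uses. Lens genes summed to 8978 and 8533 bp over 7 of 19, with 0 at Cryaa. Among them Mip had 1656 and 1304 bp and Prox1, also a horizontal cell gene, 1646 and 1795 bp. Erythroid genes summed to 904 and 698 bp (-22.8%) over 2 of 9, with the globin genes at 0. Muscle and liver genes summed to 3751 and 3814 bp over 5 of 13, with 0 at Alb and Myod1, 1115 and 563 bp at Tnnt3 and 489 and 796 bp at Acta1. Of 19 non-neural developmental regulators 16 had no end peak in either library, and those that had one included Gata2 (0 and 324 bp) and Eomes. The 3 with a peak all had more end bases in cKO, with sums of 1160 and 1733 bp (49.4%). Most of each sum came from Eomes (843 and 1007 bp), which the ganglion cell list also holds. The part of these lists in the results for other genes was not tested.

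Peaks found in both lists lay on open chromatin more often than peaks of 1 list, and ATAC was not used to choose them. At gene ends 95.5% of matched control peaks met a peak of at least 1 of the 4 ATAC libraries, and 43.7% of control-only peaks did. For cKO peaks the shares were 94.1% and 37.4%. In gene bodies they were 66.9% and 24.7% in control and 63.3% and 22.5% in cKO, and in intergenic space 75.8% and 34.4%, and 72.1% and 34.1%. The same order held in each width class under 1000 bp. Of wide peaks, 96.8% of matched and 73.3% of the 15 control-only peaks met ATAC, and 97.2% of matched and all 7 cKO-only peaks. Of peaks under 200 bp, 41.1% of matched and 23.7% of control-only peaks met ATAC, and 39.0% and 22.9% in the cKO list. From 500 bp to under 1000 bp the shares were 82.6% and 47.1% in control and 84.4% and 50.8% in cKO. The ATAC tissue was older and cultured, and its lists also differ in length. Control-only peaks at gene ends met the control ATAC libraries in 7.73% and 41.5% and the cKO ATAC libraries in 38.5% and 16.7%. For matched control peaks there the shares were 81.9% and 95.1%, and 94.3% and 88.2%. The shares for any library thus rest mostly on 1 ATAC library of each genotype for the control-only peaks.

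H3K27me3 overlapped H3K27ac peaks most at gene ends. There 21.3% of matched and 21.3% of control-only peaks met a control H3K27me3 peak, and 20.7% and 16.9% of matched and cKO-only peaks met a cKO H3K27me3 peak in the cKO list. In gene bodies 6.06% of matched control peaks and 2.61% of control-only peaks did so.

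The sequence of promoters differed by status. Of 20063 windows 11508 touched a peak in both libraries, 354 in control only (1.76%), 252 in cKO only (1.26%) and 7949 in neither. The median GC content was 62.3% in windows marked in both, 56.3% in control-only windows, 58.3% in cKO-only windows and 48.0% in unmarked ones. The ratio of observed to expected CpG had medians of 0.791, 0.461, 0.511 and 0.202. One-library promoters thus lay between the shared and the unmarked in base composition. A TATA box was found in 5.93% of shared, 13.3% of control-only, 6.35% of cKO-only and 22.7% of unmarked windows, and a GC box in 68.4%, 48.0%, 54.8% and 15.7%. Of the shared windows, 7844 (68.2%) were covered whole in both libraries, 2389 had fewer covered bases in cKO and 1251 more.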

How the data were processed

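H3K27ac, H3K27me3 and ATAC peak lists from 8 of the 10 samples were used. The deposited tables give the chromosome, start and end of each peak (positions, read here as other than a count or score), a name, a score of 0 and 1 strand sign throughout. Per the submitters' processing notes the tools were Bowtie2, deepTools and MACS2 and the build mm10, with no version, and the lists' own titles call them narrow peaks. Threshold and input use were not given in the sources used here, while peak names hold 1 library each, and calling was taken to be per library. A list can lengthen with depth, which is unknown, so no precision per peak can be given.

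Positions are printed 1-based, with 1 base added to each deposited peak start. Python 3.11.15, numpy 2.4.6 and scipy 1.17.1 were used, and chromosomes 1 to 19 were kept. Gene positions and promoter windows came from RefSeq GRCm38.p6, the assembly of mm10. The gene table has no strand, so both ends were used, and strand was taken from the promoter table where it had the gene. Peaks matched with at least 1 shared base. The interval arithmetic was tested on simulated data.

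The comparison and its gene lists (33 lists, 569 entries, 507 different genes) were chosen with earlier results of these data known. Ahsp had no match, 1 gene matched by an older symbol and 13 lay on other chromosomes. Named were Casz1, the 6 widest unmatched peaks per place and direction, the 5 largest body differences, the 3 most broken peaks and the 3 longest edges per direction, list members with an end peak in 1 library, and each list's largest shortfall and excess at ends. Members beyond that were named after their values were seen, as were the bodies described. The rule asked for promoters of the first 3 end genes per direction. Only those whose window lay in the peak are printed, and 2 list members were added. Alternatives were wider and narrower end windows, all annotated genes, other width limits, joined peaks, overlap of 50% of the narrower peak, other fold settings and scaling. Some genes that the rule took are not reported here.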

Additional observations from a re-analysis of the deposited data

Results flagged for a closer look

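Outside the chromosomes compared, H3K27ac peaks were also called on chromosome Y, 32 in control and 42 in cKO, and they covered 28102 and 33355 bp. Of these, 27 control and 22 cKO peaks met a peak of the other list. They are listed because no comparison above uses them and no control sample without the mark was analysed. The sources used here do not give the sex of the animals, and the difference was not tested. Chromosome X had 1147 and 1180 peaks, and its covered bases differed by -5.69%, beside -8.80% to -5.78% over the autosomes.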

How the results depend on the processing

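Of 236 values under alternatives for 27 results, 180 were labelled the same, 54 moved and 2 turned. Direction was judged only for the ratios of cKO to control. Each count was judged by its own size, so a change in which library had more is not among the 2. With lists cut to equal length, unmatched body peaks were 14522 in control and 12496 in cKO, against 13953 and 15308 as reported. The turned balance of scaled fold counts in bodies, given below, is likewise not among the 2. The directions of covered bases and wide peaks by place held under each alternative. No paired analysis was possible because each genotype has 1 library and no replicate number. For the same reason no library was left out in turn.

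With only peaks of at least 300 bp, the ratio of narrow peak numbers turned to 0.960 in bodies and 0.933 in intergenic space, since fewer short peaks enter. Unmatched control and cKO peaks then numbered 690 and 383 at gene ends, 5386 and 3385 in bodies, and 3125 and 1690 in intergenic space. Wide unmatched ones numbered 135 and 24, wide broken ones 2511 and 1039, narrow broken ones 279 and 325, and genes with an end peak in cKO only 164.

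Unmatched control and cKO peaks at gene ends were 759 and 774 with 500 bp windows, 2048 and 2302 with 2000 bp windows, 2238 and 2380 with all annotated genes, and 689 and 829 with peaks within 500 bp joined. All annotated genes gave 837 genes with an end peak in control only and 821 in cKO only. The 5' end alone, added after the data were seen, gave 179 in cKO only, over fewer genes.

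Wide unmatched peaks of control and cKO were 135 and 86 with joined peaks, 25 and 17 with an overlap of 50% of the narrower peak, 743 and 373 with wide from 500 bp, and 0 and 0 with wide from 2000 bp. Broken wide peaks were 1360 and 756 with joined peaks and 1991 and 634 with wide from 2000 bp. For cKO they were 2453 with wide from 500 bp. Broken narrow peaks of control and cKO were 43 and 47 joined, 856 and 393 with 50% overlap, 380 and 287 with wide from 500 bp, and 4012 and 2106 with wide from 2000 bp.

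Genes past the fold limit, higher and lower in cKO, were 36 and 114 at ends and 225 and 364 in bodies with 500 bp added. At a 2-fold limit they were 29 and 94 at ends and 177 and 265 in bodies. Scaling to equal covered bases gave 178 higher and 226 lower at ends, and 566 and 521 in bodies, where the balance turned. The cause of the moves was not tested beyond the construction of each alternative.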
